A study of Sus scrofa with 25 samples.

Results

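The dystrophin-glycoprotein complex was followed as 8 named genes in muscle of 25 pigs fed 3 levels of vitamin D3: DMD, UTRN, DAG1, SGCA, SGCB, SGCD, SNTB1 and LAMA2. Members were found by matching these symbols to Ensembl pig gene identifiers and then to the rows of the count files. DMD (ENSSSCG00000028148), UTRN (ENSSSCG00000004123), DAG1 (ENSSSCG00000034357), SGCA (ENSSSCG00000017583) and SNTB1 (ENSSSCG00000005994) had a row, which gives 5 members with values among 25879 gene identifiers. The other 3, SGCB, SGCD and LAMA2, matched no row and were not analysed here.

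The pigs came from Polish Large White sows and Landrace boars, were kept singly on straw, and ate their assigned feed for 90 days, starting at 85 days of age. The control diet held 0 IU of vitamin D per kg of feed (8 pigs), the D5000 diet 5000 IU/kg (8 pigs) and the D10000 diet 10000 IU/kg (9 pigs). The feeds were matched for protein and energy, and the pigs of a litter were spread over the diets. One library was made per pig from total muscle RNA with a kit that reads the 3' ends of mRNA, and replicates carry the animal numbers. Which muscle was taken, and each animal's sex and litter, are not in the labels, so no litter term could be fitted.

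In muscle fibres, dystrophin (DMD) binds cortical actin on the inside of the cell membrane and holds dystroglycan, the product of DAG1, in that membrane. Dystroglycan in turn binds laminin of the basement membrane through sugar chains added by a dedicated set of enzymes, so that the complex forms a mechanical link from cytoskeleton to matrix. The sarcoglycans are membrane glycoproteins that steady this link, the syntrophins are adaptors on dystrophin, and utrophin (UTRN) is the relative of dystrophin that fills its place at the neuromuscular junction and in many cell types other than muscle fibres. Loss of DMD, SGCA, SGCB, SGCD or LAMA2 causes muscular dystrophies in humans.

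Gene counts per library ran from 3310507 to 15177976, and 24.9% to 70.6% of the reads in a file were assigned to genes. Muscle fibre markers (10 of 13 symbols had a row) were detected in all libraries and summed to 75511 to 263201 counts per 1000000 gene counts (CPM) in 24 of them. D10000 replicate 27 stood apart, with 13209 CPM of these markers and 16818 CPM of 8 adipocyte markers, against 81.5 to 390 CPM of adipocyte markers in the other 24 libraries. In 3 libraries under 40% of reads were assigned to genes: D5000 replicate 18 (24.9%), D10000 replicate 2 (28.4%) and D10000 replicate 7 (38.2%). These 3 libraries also had the highest sums of 5 liver transcripts, at 23918, 23014 and 27414 CPM, and each such sum was above the control maximum of 16933 CPM. The 4 libraries named here were chosen as doubtful after the data were seen, and results are given with and without them where they matter.

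The complex genes were present at very different levels, with DAG1 always first and the lower genes changing places between pigs. Since 1 read comes from the 3' end of 1 transcript, CPM values of different genes were compared without a length correction, as far as the 3' ends were annotated equally well. DAG1 was the most abundant member in 25 of 25 libraries, with a lowest, median and highest level of 193, 372 and 673 CPM. DMD followed with 41.6, 99.4 and 243 CPM. SNTB1, the beta-1 syntrophin, had 17.5, 49.3 and 109.9 CPM. UTRN had 11.8, 28.1 and 138 CPM, and SGCA, the alpha-sarcoglycan of striated muscle, had 2.42, 26.0 and 45.97 CPM. DMD was above SNTB1 in 22 of 25 libraries and above UTRN in 22 of 25. Further down the order was looser, with SNTB1 above SGCA in 22 libraries and above UTRN in 17, and UTRN above SGCA in 15.

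**Figure D1:**
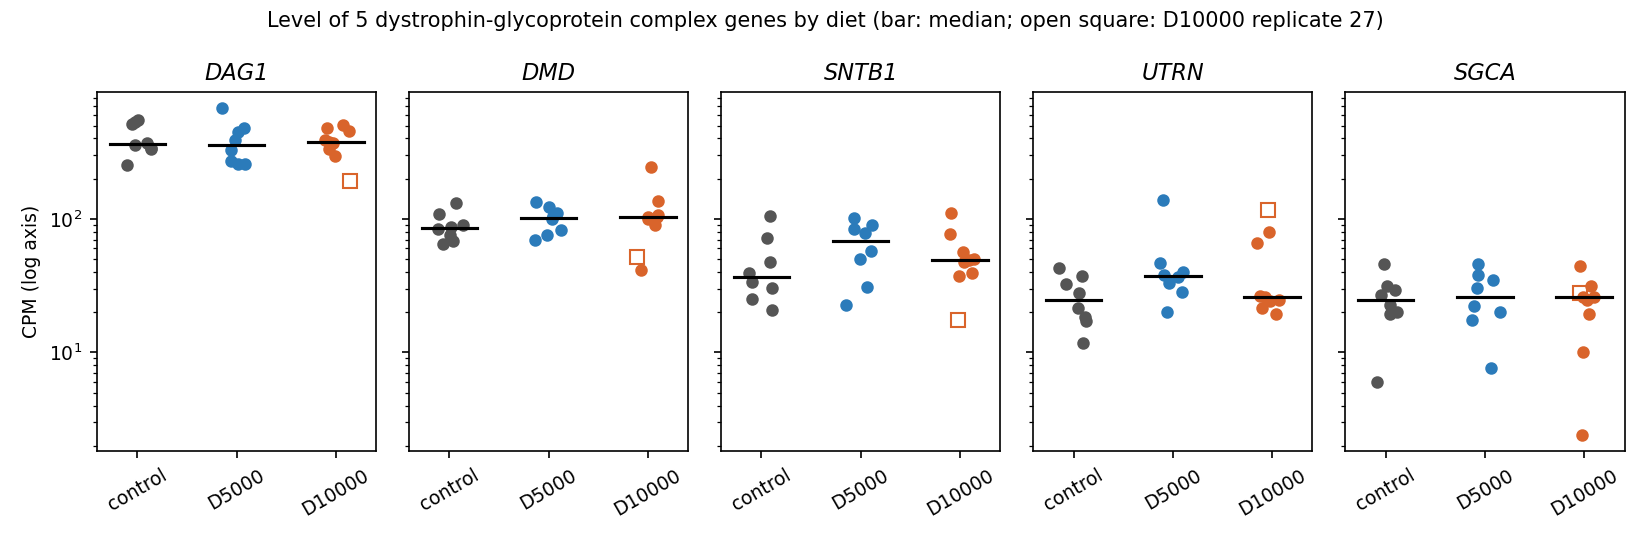
CPM of DAG1, DMD, SNTB1, UTRN and SGCA on a log axis, 1 point per pig, for the control (8 pigs), D5000 (8) and D10000 (9) diets, with the median as a bar and D10000 replicate 27 as an open square. The diets overlap for each gene, and the 4 highest UTRN points (65.9 to 138 CPM) are 1 D5000 and 3 D10000 libraries.

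DAG1 had the lowest coefficient of variation of CPM over all 25 libraries (29.1%, against 38.8% for DMD), while DMD had a lower one than DAG1 without the 4 doubtful libraries (21.6% against 28.4%). Its level was 406 ± 110 CPM in the control (SD, n = 8), 388 ± 144 CPM in D5000 (n = 8) and 379 ± 97.1 CPM in D10000 (n = 9). The ranges were 252 to 547 CPM in the control, 256 to 673 CPM in D5000 and 193 to 508 CPM in D10000, so that the diets overlapped almost fully. The highest over the lowest library was 3.48-fold, and the lowest was the fat-rich D10000 replicate 27. The biological coefficient of variation of DAG1 in edgeR, moderated towards the trend over all tested genes, was 0.410. It was lower than in most tested genes (percentile 11.4 of 10992). DAG1 was at percentile 97.7 of level, and this rank was not taken among genes of a similar level.

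DMD was at 88.8 ± 22.3 CPM in the control (SD, n = 8), 99.9 ± 22.6 CPM in D5000 (n = 8) and 108 ± 58.2 CPM in D10000 (n = 9). Its lowest, median and highest values were 64.7, 85.4 and 133 CPM in the control, 69.2, 102 and 133 CPM in D5000 and 41.6, 103 and 243 CPM in D10000. The wider spread at 10000 IU/kg came from both ends: D10000 replicates 7 and 27 lay under each control library, at 41.6 and 51.5 CPM, and D10000 replicates 2 and 1 lay above each control library, at 243 and 135 CPM. These extremes included the 2 D10000 libraries with under 40% of reads assigned to genes, at opposite ends. Without the 4 doubtful libraries the SD was 15.3 CPM in D10000 (n = 6), against 22.3 CPM in D5000 (n = 7) and in the control. With all libraries and trimmed mean (TMM) scaling it was 26.9 CPM in the control, 39.6 CPM in D5000 and 44.3 CPM in D10000. On that scale 1 D10000 library lay above each control library.

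SNTB1 was at 46.7 ± 28.4 CPM in the control (SD, n = 8), 64.4 ± 28.6 CPM in D5000 (n = 8) and 53.8 ± 26.3 CPM in D10000 (n = 9). Its lowest, median and highest values were 20.9, 36.5 and 105 CPM in the control, 22.6, 67.7 and 101 CPM in D5000 and 17.5, 49.3 and 109.9 CPM in D10000. D5000 libraries were above the control mean in 6 of 8 and D10000 libraries in 6 of 9 on the CPM scale, but in 3 of 9 after trimmed mean (TMM) scaling, yet the control library with the most SNTB1 exceeded each D5000 library.

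SGCA was at 25.2 ± 11.5 CPM in the control (SD, n = 8), 27.1 ± 12.5 CPM in D5000 (n = 8) and 23.6 ± 12.1 CPM in D10000 (n = 9). Its lowest, median and highest values were 5.99, 24.9 and 45.8 CPM in the control, 7.70, 26.2 and 45.97 CPM in D5000 and 2.42, 26.0 and 44.3 CPM in D10000. SGCA had the widest range of the 5 genes, 19.02-fold from D5000 replicate 18 at the top to D10000 replicate 2 at the bottom, and 7.67-fold without D10000 replicate 2, which is under the 11.8-fold of UTRN. The lowest value rests on 8 reads (95% Clopper-Pearson interval of 1.04 to 4.76 CPM, counting error only). Low SGCA was also seen in D10000 replicate 30 (10.1 CPM), control replicate 28 (5.99 CPM) and D5000 replicate 25 (7.70 CPM), and neither of the last 2 had a low share of assigned reads (55.1% and 65.5%). In the fat-rich D10000 replicate 27, where DAG1 and SNTB1 had their lowest CPM of the series, SGCA stood at 27.8 CPM, close to its median.

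UTRN was the member with the largest difference from the control at either dose, and it was smaller without a few libraries. It was at 26.2 ± 10.8 CPM in the control (SD, n = 8), 47.6 ± 37.5 CPM in D5000 (n = 8) and 44.9 ± 34.4 CPM in D10000 (n = 9). Its lowest, median and highest values were 11.8, 24.7 and 42.8 CPM in the control, 20.2, 37.4 and 138 CPM in D5000 and 19.4, 25.9 and 116 CPM in D10000. In D5000, 7 of 8 libraries were above the control mean and 2 were above each control library. In D10000, 3 of 9 were above each control library, and the other 6 lay between 19.4 and 26.5 CPM, within the control range.

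At 5000 IU/kg the question was how the complex genes stand against pigs on the 0 IU/kg feed. None of the 5 members passed an adjusted p of 0.05 in edgeR's quasi-likelihood test, as was so for all of the 10992 genes tested (0 called, 0%). DESeq2 and limma voom called 0 genes as well, here and in the other diet comparisons. UTRN had the largest estimate, 0.71 ± 0.30 log2 units above the control (SE, n = 8 per diet, unadjusted p = 0.0248, adjusted p = 0.999 in edgeR). An unadjusted p under 0.05 with a higher level in D5000 was reached by 236 genes (2.15%), of which UTRN was 1, and a lower one by 135 genes (1.23%), none of them a member. A positive fold change was fitted for 3 of 5 members, against 51% of all tested genes. The other log2 fold changes were 0.34 ± 0.35 for SNTB1, 0.13 ± 0.30 for DMD, -0.06 ± 0.39 for SGCA and -0.12 ± 0.29 for DAG1. The 95% intervals, from the SE, ran from 1.09-fold to 2.47-fold for UTRN and from 0.732-fold to 1.64-fold for DMD, so that a moderate change of DMD in either direction was not detectable at this spread. All 8 D5000 libraries exceeded the control mean of UTRN after TMM scaling. The log2 fold change of UTRN was 0.47 without D5000 replicate 18 (unadjusted p = 0.116 in edgeR) and 0.44 ± 0.25 with the percentage of reads assigned to genes added to the fit (unadjusted p = 0.0842 in edgeR). Without all 4 doubtful libraries it was 0.47 ± 0.21 (unadjusted p = 0.0280, adjusted p = 0.999 in edgeR). Bulk RNA cannot tell more UTRN per cell from more cells of a type that holds it.

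At 10000 IU/kg against the control, 0 of 10992 genes were called in edgeR (0%), members included. At an unadjusted p under 0.05, 231 genes were higher (2.1%) and 32 lower (0.291%), with no member among them. A positive fold change was fitted for 3 of 5 members, against 57.2% of all tested genes. UTRN was again the highest, 0.54 ± 0.29 log2 units above the control (SE, n = 9 against 8, unadjusted p = 0.0766, adjusted p = 1.00 in edgeR). It was 0.28 without the fat-rich D10000 replicate 27 and -0.05 without all 4 doubtful libraries, so its direction turned. DMD was at 0.10 ± 0.29, SNTB1 at 0.09 ± 0.34, SGCA at -0.22 ± 0.38 and DAG1 at -0.23 ± 0.28. Their 95% intervals reached from 0.725-fold to 1.59-fold for DMD and from 0.582-fold to 1.25-fold for DAG1. For SGCA the interval reached from 0.515-fold to 1.43-fold.

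Between the doses, at 10000 against 5000 IU/kg, all 5 members had a negative log2 fold change, from -0.25 ± 0.34 for SNTB1 to -0.03 ± 0.29 for DMD, with 0 of 10992 genes called in edgeR (0%). Over all tested genes 54.6% had a positive one. At an unadjusted p under 0.05, 232 genes were higher (2.11%) and 91 lower (0.828%), with no member among them. For all 5 members 1 library or the 4 doubtful ones decided the sign, since without these 4 it was positive for DMD (0.08), DAG1 (0.02), SGCA (0.18) and SNTB1 (0.03), and for UTRN it was positive without D5000 replicate 18 (0.10) but -0.52 without the 4, at an unadjusted p of 0.0253 and an adjusted p of 0.997 in edgeR. The joint test of both doses gave an unadjusted p of 0.0679 for UTRN and of 0.607 or more for the other 4 in edgeR, and no gene was called (0%), with 292 at an unadjusted p under 0.05. The 3 comparisons share libraries, so their values are not independent of one another.

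**Figure D2:**
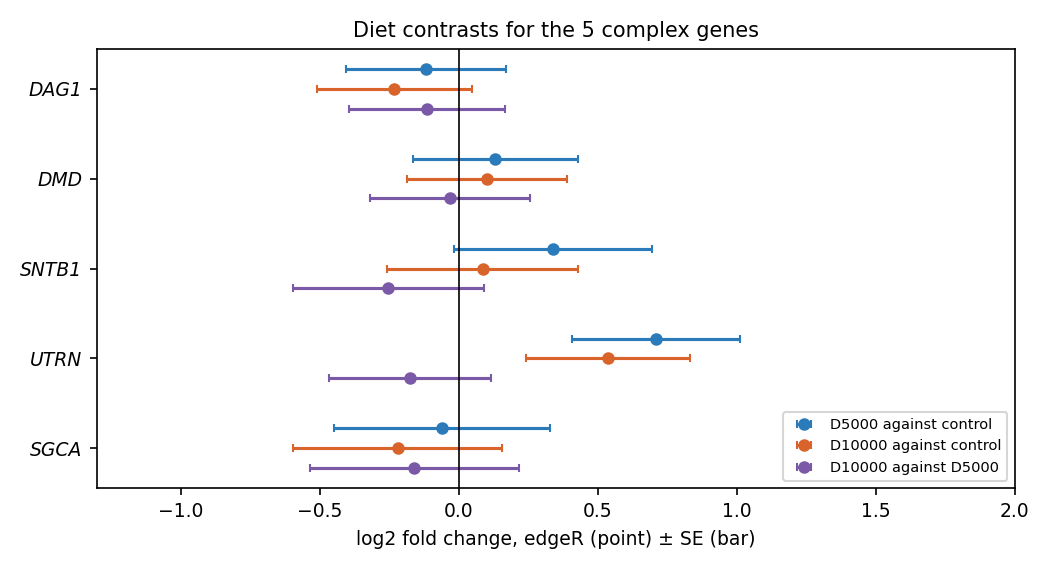
Log2 fold change (point) with its SE (bar) of each of the 5 genes in edgeR, for D5000 against control, D10000 against control and D10000 against D5000. UTRN lies farthest from 0, at 0.71 for D5000 and 0.54 for D10000 against control, and none of the 15 values passed an adjusted p of 0.05.

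Utrophin can partly stand in for dystrophin in mouse muscle, so their transcripts were set side by side within each library. DMD exceeded UTRN in 22 of 25 pigs. The ratio of UTRN to DMD reads had a median of 0.302 in the control (range 0.109 to 0.544), 0.404 in D5000 (0.152 to 1.13) and 0.244 in D10000 (0.160 to 2.26). UTRN exceeded DMD in D10000 replicate 27 (ratio 2.26), D10000 replicate 7 (1.58) and D5000 replicate 18 (1.13) and in no control library. The libraries with a ratio above 1 are all among the 4 doubtful ones, none of which is a control library. Without the 4 doubtful libraries UTRN exceeded DMD in 0 libraries, and the highest ratio was 0.560. The median was then 0.402 in D5000 (n = 7, range 0.152 to 0.560) and 0.238 in D10000 (n = 6, 0.160 to 0.266). In D10000 replicate 27, UTRN was high (116 CPM) and DMD low (51.5 CPM). The same was true of D10000 replicate 7 (65.9 and 41.6 CPM). D5000 replicate 18 had high UTRN (138 CPM) with DMD of 122 CPM, above the DMD median in unscaled CPM. After TMM scaling its DMD was 79.5 CPM, below the median of 99.1 CPM over the 25 libraries. D10000 replicate 2 had 79.4 CPM of UTRN but the highest DMD of the series in unscaled CPM, which left its ratio at 0.327.

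**Figure D3:**
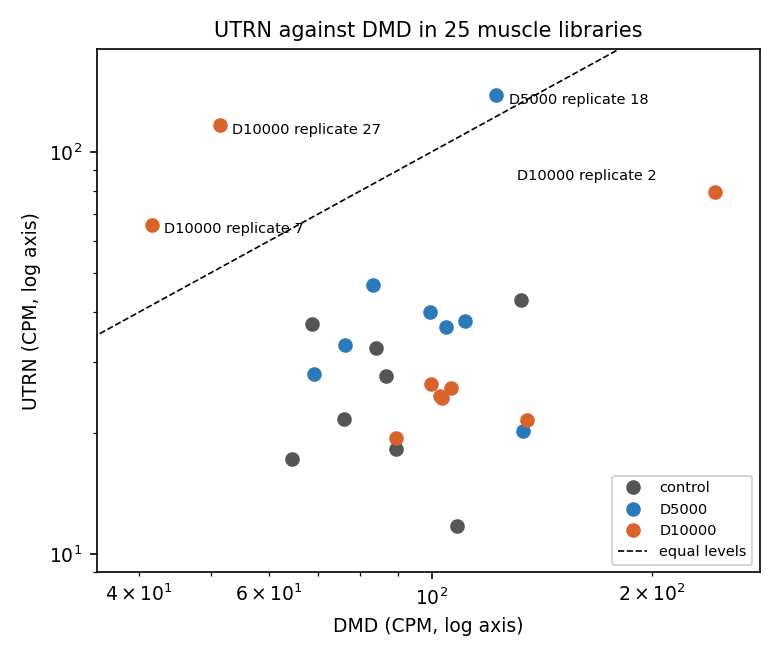
UTRN against DMD in CPM, both on log axes, 1 point per pig, coloured by diet, with a dashed line of equal levels. The 3 libraries above the line are D10000 replicates 27 and 7 and D5000 replicate 18, and the other 22 libraries lie below it.

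Across libraries the members went apart with the share of reads assigned to genes, that is gene counts over all reads of a file. UTRN was higher where the share was low and DAG1 was higher where it was high. The slope per 10 percentage points of share, with diet in the fit, was -0.32 ± 0.09 on the log2 scale for UTRN (SE, n = 25, adjusted p = 0.00518 in edgeR) and 0.24 ± 0.09 for DAG1 (adjusted p = 0.0427). Many genes had such a slope: 3168 of 10992 were called (28.8%), 1529 rising with the share (13.9%) and 1639 falling with it (14.9%), so that 2 of 5 members called is near that background. SNTB1 had a slope of 0.23 ± 0.12 (adjusted p = 0.176), SGCA one of 0.19 ± 0.15 (0.396) and DMD one of 0.13 ± 0.09 (0.290).

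The 3 libraries with under 40% of reads assigned to genes had 138, 79.4 and 65.9 CPM of UTRN, and the fat-rich D10000 replicate 27 had 116 CPM. In the other 21 libraries UTRN ran from 11.8 to 46.6 CPM, below each of those 4. Endothelial markers (4 of 5 symbols had a row, none at 0 in any library) summed to 187 CPM in D5000 replicate 18, 117 CPM in D10000 replicate 2, 97.2 CPM in D10000 replicate 7 and 410 CPM in D10000 replicate 27. Over the control libraries they summed to 53.5 to 150 CPM. The 2 libraries with the most UTRN also had the highest endothelial sums. Control replicate 16, at the control maximum of 150 CPM, had 18.3 CPM of UTRN, below the median of 28.1 CPM. D10000 replicate 27 was also highest in fibroblast markers (6865 CPM) and smooth muscle markers (510 CPM). In D5000 replicate 18 these 2 sums were 1463 and 116 CPM. The part of such cell types in the UTRN levels was not tested.

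The slope of UTRN was no longer called without D5000 replicate 18 (-0.28, adjusted p = 0.0720 in edgeR). Without the 2 libraries farthest from the median share, D5000 replicate 18 and D10000 replicate 2, it was -0.29 (adjusted p = 0.160). Without the 4 doubtful libraries it was -0.15 (adjusted p = 0.469). The DAG1 call was lost when any of 9 libraries was left out, with slopes of 0.21 to 0.26 over all 25 omissions. These 9 were control replicates 16, 17 and 23, D5000 replicates 5 and 18, and D10000 replicates 2, 20, 21 and 30. Without the 4 doubtful libraries the DAG1 slope was 0.24 (adjusted p = 0.260). The DMD slope depended on 1 library, D10000 replicate 2, which had a low share and the highest DMD in unscaled CPM. After TMM scaling DMD was higher in D5000 replicate 25 (195 CPM, against 173 CPM). Without D10000 replicate 2 the DMD slope was 0.34 (adjusted p = 0.00890 in edgeR), and 2635 of 10992 genes were called. Without the 4 doubtful libraries it was 0.36 (adjusted p = 0.0219 in edgeR), and 1418 of 10992 genes were called.

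**Figure D4:**
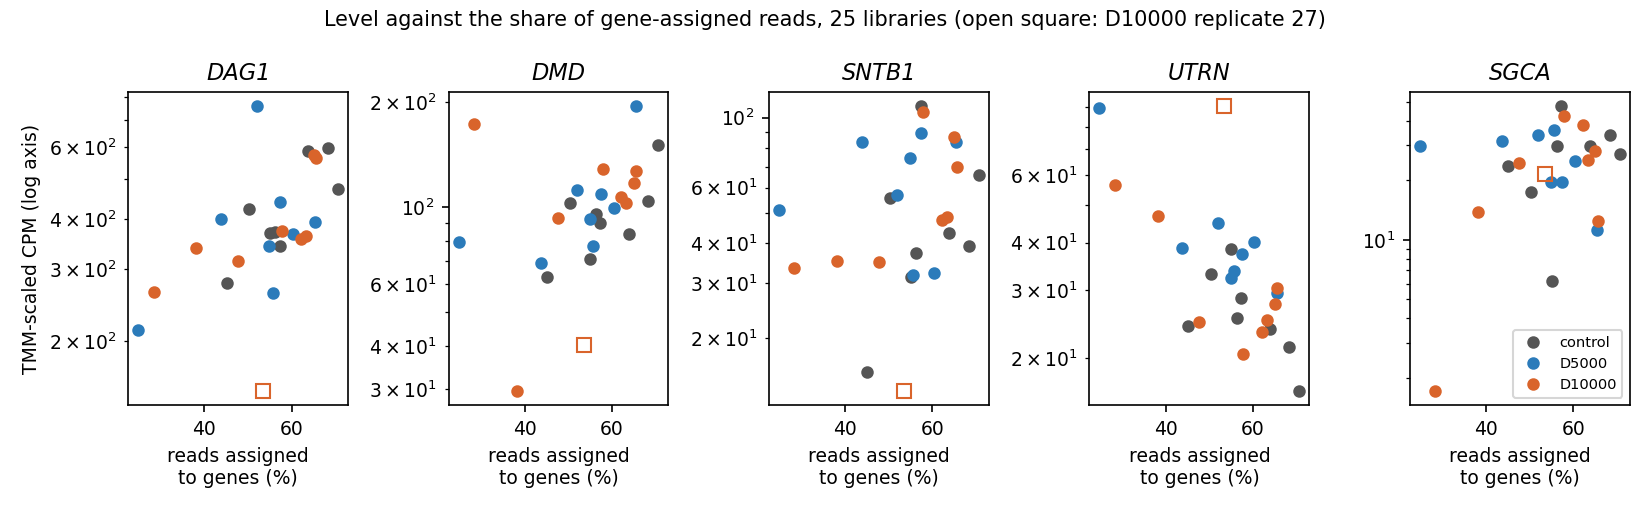
TMM-scaled CPM of each gene, each panel with its own log axis, against the percentage of reads assigned to genes in 25 libraries, coloured by diet, with D10000 replicate 27 as an open square. UTRN falls from left to right (slope -0.32 per 10 points) and DAG1 rises (0.24), and D10000 replicate 2, at 28.4% assigned reads, lies high for DMD and lowest for SGCA.

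Likeness between members was measured as Spearman's rho of TMM-scaled log2 CPM over the 25 libraries. It is a description, since all genes share the depth and quality of a library. DAG1, DMD and SNTB1 had positive rho with one another: 0.50 for DAG1 and DMD, 0.50 for DAG1 and SNTB1 and 0.49 for DMD and SNTB1. In the same order they were 0.52, 0.34 and 0.50 without the 4 doubtful libraries, and 0.44, 0.44 and 0.43 without D10000 replicate 27. UTRN had a negative rho with each of the other 4, from -0.38 with SGCA to -0.23 with SNTB1. Without the 4 doubtful libraries it was 0.00 with DAG1, 0.01 with SNTB1, -0.25 with DMD and -0.31 with SGCA. SGCA had a rho of -0.05 with DMD, 0.12 with DAG1 and 0.26 with SNTB1.

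Over all tested genes with a symbol, the 3 most like DMD were PFKM, the muscle phosphofructokinase (rho 0.82), the deubiquitinase USP47 (0.80) and PGM2L1 (0.79). DAG1 was most like RAB5IF (0.91), the deubiquitinase USP2 (0.82) and the RNA polymerase subunit POLR1C (0.80). SNTB1 was most like EEF2K, the kinase of elongation factor 2 (0.80), the calcium/calmodulin-dependent kinase CAMK2G (0.75) and the focal adhesion kinase PTK2 (0.73). SGCA was most like UQCRC1, a subunit of mitochondrial complex III (0.74), THAP7 (0.72) and FMC1 (0.69). Among the genes most like UTRN were ATP23 (0.80) and the acetyl-CoA carboxylase ACACA (0.78). ACACA ranged from 3.39 to 541 CPM, and its rho with UTRN was 0.62 without the 4 doubtful libraries. No other complex gene was among those named here.

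Of 13 further subunits and partners of the complex, 8 had a row and 5 passed the count filter, with 0 called in any diet comparison in edgeR. SSPN (sarcospan), a small membrane protein of the sarcoglycan subcomplex, was the most abundant of them. It had 454 ± 217 CPM in D5000 (SD, n = 8), against 317 ± 76.5 CPM in the control (n = 8), at a log2 fold change of 0.49 ± 0.31, and 347 ± 114 CPM in D10000 (n = 9), at -0.06 ± 0.30 and at 0.02 without D10000 replicate 27. The beta-2 syntrophin SNTB2 averaged 55.2 ± 24.7 CPM over the 25 libraries (SD) and alpha-dystrobrevin DTNA 48.1 ± 19.1 CPM. At both doses they were within 0.24 log2 units of the control. NOS1, the neuronal nitric oxide synthase that the complex anchors, had few reads, at 1.72 ± 2.52 CPM. The zeta-sarcoglycan SGCZ and the syntrophin SNTG1 had 0 reads in all 25 libraries. SNTG2, DTNB and CAV3 are among those not analysed here. In the slope on assigned reads 0 of these 5 subunits were called. Without the 4 doubtful libraries DTNA was called (0.48, adjusted p = 0.0418 in edgeR), as were 1418 of all 10992 tested genes.

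Of 11 laminins and other basement membrane genes that dystroglycan or its partners meet, 7 passed the filter, 4 of them higher at 5000 IU/kg (median log2 fold change 0.09, against 0.01 over all tested genes) and 4 higher at 10000 IU/kg (0.14 against 0.07), with 0 called. Without the 4 doubtful libraries 3 were higher and 4 lower at each dose, and the medians turned to -0.04 at 5000 IU/kg and -0.06 at 10000 IU/kg. The laminin gamma-1 chain LAMC1 had 75.4 ± 34.5 CPM in D10000 (SD, n = 9) and 53.0 ± 19.4 CPM in the control (n = 8), at a log2 fold change of 0.37 ± 0.26. NID1 (nidogen) averaged 16.4 CPM over the 25 libraries, AGRN (agrin), which clusters receptors at the neuromuscular junction, 7.64 CPM and the laminin beta-1 chain LAMB1 4.76 CPM. The other laminin chains had few reads: LAMA1, LAMA3, LAMA5 and LAMB2 had at most 41 reads in a library and did not pass the filter. Whether their 3' ends were fully annotated was not tested, so few reads need not mean little transcript. LAMA4, named after its value was seen, had few reads too, at a mean of 3.24 CPM, with at most 152 reads in a library and 0 in 4 libraries. It was 1 of the 236 genes higher in D5000 at an unadjusted p under 0.05 (2.39 ± 1.13, SE, unadjusted p = 0.0413, adjusted p = 0.999 in edgeR). It fell with the share of assigned reads at a slope of -1.13 ± 0.26 (adjusted p = 0.00152 in edgeR). LAMA4 was highest in D5000 replicate 18, and its log2 fold change without that library was 1.09 (unadjusted p = 0.334). Without the 2 libraries farthest from the median share, LAMA4 had an adjusted p of 0.239 in that slope.

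Of 18 genes that build the sugar chains of dystroglycan, 16 had a row and 13 passed the filter. Of these, 5 were higher and 8 lower at each dose than in the control, and 0 were called. Over all tested genes 51% were higher at 5000 IU/kg and 57.2% at 10000 IU/kg. The list median log2 fold change was -0.17 at 5000 IU/kg and -0.12 at 10000 IU/kg, against 0.01 and 0.07 over all tested genes. The list medians were -0.07 and -0.19 without the 4 doubtful libraries. DPM1, a subunit of the mannose donor synthase, had 19.8 ± 11.2 CPM in D5000, against 27.3 ± 6.32 CPM in the control (SD, n = 8 each), at a log2 fold change of -0.56 ± 0.27 (unadjusted p = 0.0476, adjusted p = 0.999 in edgeR) and -0.43 without D5000 replicate 18 (unadjusted p = 0.100). DPM1 had 33.4 ± 7.89 CPM in D10000 (SD, n = 9), at 0.08 ± 0.26 against the control. For D10000 against D5000 its log2 fold change was 0.64 ± 0.27 (SE, unadjusted p = 0.0216, adjusted p = 0.999 in edgeR). In that comparison 2 of the 13 genes were higher at an unadjusted p under 0.05, against 2.11% of all tested genes, and 1 was without the 4 doubtful libraries. POMGNT1 averaged 19.1 CPM and B3GALNT2 17.2 CPM over the 25 libraries, and their log2 fold changes against control lay between -0.23 and 0.16. With the share of assigned reads, B3GALNT2 rose (0.44 ± 0.12, adjusted p = 0.00556), and so did RXYLT1 (0.89 ± 0.21, adjusted p = 0.00210), while POMK fell (-0.52 ± 0.16, adjusted p = 0.0173). RXYLT1 and POMK were picked for their values, and the POMK call was lost without D10000 replicate 2 (adjusted p = 0.120). B3GALNT2 had an adjusted p of 0.0544 and POMK one of 0.143 without the 4 doubtful libraries, while RXYLT1 still passed (0.0147). The 3 called of 13 stand against 28.8% of all tested genes.

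Of 12 genes of the integrin link and of linkers between the membrane and the cytoskeleton, 9 passed the filter, and 0 were called at either dose. At each dose 6 of the 9 were higher, against 51% of all tested genes at 5000 IU/kg and 57.2% at 10000 IU/kg. The list median log2 fold change was 0.12 at 5000 IU/kg and 0.07 at 10000 IU/kg, against 0.01 and 0.07 over all tested genes. With the 4 doubtful libraries left out, 3 were higher and 6 lower at each dose, and the medians turned to -0.02 at 5000 IU/kg and -0.07 at 10000 IU/kg. DES (desmin), the intermediate filament of muscle, was the most abundant at 1681 ± 1221 CPM (SD, n = 25) and ran from 262 to 4637 CPM between pigs. ITGB1, the beta-1 integrin, averaged 65.0 ± 43.8 CPM, TLN2 (talin 2) 97.8 ± 89.7 CPM and TLN1 (talin 1) 61.5 ± 87.4 CPM. TLN1 had a log2 fold change of 0.82 ± 0.42 at 10000 IU/kg (unadjusted p = 0.0581, adjusted p = 1.00 in edgeR), with medians of 37.9 CPM in D10000 and 31.6 CPM in the control, and its highest library, the fat-rich D10000 replicate 27, was at 463 CPM. Without that library the log2 fold change of TLN1 turned to -0.12 ± 0.25. With the share of assigned reads 1 of these 9 genes rose and 3 fell, against 13.9% rising and 14.9% falling over all tested genes. DES rose (0.85 ± 0.18 per 10 points, adjusted p = 0.000689 in edgeR), as DAG1 did. ITGB1 (-0.30 ± 0.07, adjusted p = 0.00165), PLEC (plectin, -0.70 ± 0.16, adjusted p = 0.00115, named after its value was seen) and TLN2 (-0.30 ± 0.11, adjusted p = 0.0490) fell, as UTRN did. Without the 4 doubtful libraries none of these 4 passed, with adjusted p-values of 0.0873 for DES, 0.819 for ITGB1, 0.560 for PLEC and 0.763 for TLN2. VCL (vinculin, named after its value was seen) was called under that omission (0.45, adjusted p = 0.0301 in edgeR), as were 1418 of all 10992 tested genes. TLN1 was called without D10000 replicate 27 (-0.24, adjusted p = 0.00533 in edgeR), as were 3708 of 10992. The TLN2 call was lost when any of 17 libraries was left out, and the PLEC call without D5000 replicate 18 (adjusted p = 0.0653).

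**Figure D5:**
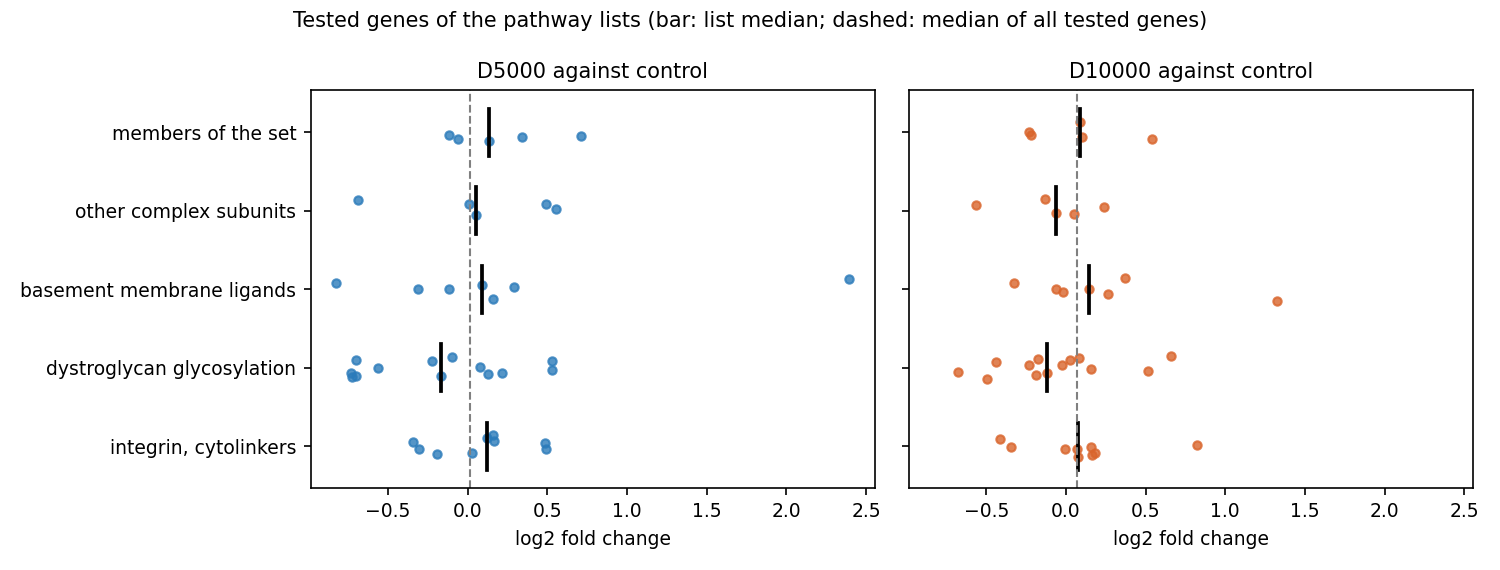
Log2 fold change of each tested gene (points) in the complex members and 4 lists of related genes, for D5000 against control (left) and D10000 against control (right), with the list median as a bar and the median of all 10992 tested genes as a dashed line. The list medians lie between -0.17 and 0.14, and the 2 points farthest to the right are LAMA4 (2.39 and 1.32).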

How the data were processed

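The authors deposited raw read counts per Ensembl gene, 1 file per pig; the whole-number values show no normalization. Per the labels, libraries were made with the QuantSeq 3' FWD kit, and the submitters' processing notes name FastQC. No source used here names an aligner, a counting program, a genome build or an annotation release, so no coordinates are printed. Summary lines (all reads but the 24.9% to 70.6% assigned to genes) and spike-ins (1 read in all) were left out. The file of D10000 replicate 27 lacked 1 of 25880 identifiers, and 25879 were analysed, 14856 of them with an Ensembl symbol.

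CPM are counts per 1000000 counts of Ensembl genes. Genes were filtered with filterByExpr (minimum count 10, minimum total 15), which left 10992, and tested with edgeR 4.0.16 (TMM scaling, glmQLFit with robust estimation, glmQLFTest) in R 4.3.3. Diet was the only term, all 25 libraries entered 1 fit, and p-values were adjusted by Benjamini-Hochberg over all tested genes. A second fit added the share of assigned reads. TMM factors were 0.679 to 1.54. The alternatives were RLE scaling, no filter, DESeq2 1.42.0, limma 3.58.1 voom, 2 diets only, the share as covariate and omission of libraries. The code was tested on simulated counts. Counting error weighs most on low counts. PCR duplicates cannot be told apart without molecular identifiers, so an interval from counting error alone can be too narrow.

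The members and lists were chosen with earlier results of these data known. Named list genes are the 4 with the highest mean CPM per list and any past the threshold in a diet comparison, and others are marked as named after their values were seen. For likeness the 3 genes with the highest rho per member are named. Some genes that these rules pick are not reported here. The labels do not say more of how the animals were sampled. The p-values weigh a diet difference or slope against the spread between libraries within diets. They treat the 25 pigs as independent, without a litter term.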

Additional observations from a re-analysis of the deposited data

Results flagged for a closer look

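Among single libraries, 3 values lay far from the rest of their diet by Dixon's criterion, out of 18 groups of CPM or ratios tested. Its rate of about 1 in 20 by chance holds for normally distributed values, so the 3 are not set against it. DMD in D10000 replicate 2 was at 243 CPM, with the next highest D10000 library at 135 CPM. After TMM scaling they were at 173 and 128 CPM, a scale on which the criterion was not applied. UTRN in D5000 replicate 18 was at 138 CPM, with the next highest D5000 library at 46.6 CPM. The ratio of UTRN to DMD in D5000 replicate 18 was 1.13, with the next highest at 0.560. This ratio contains the flagged UTRN value, so the 3 flags are not independent. Both libraries had under 40% of reads assigned to genes (28.4% and 24.9%), and its part in these values was not tested.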

How the results depend on the processing

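In the 3 diet comparisons and the joint test, 0 genes were called under all alternatives that were run, and no member passed in any of them. No paired analysis was possible because animal numbers are not shared between diets and litters are not in the labels. At 10000 IU/kg against control, voom moved the median log2 fold change of all tested genes to -0.039, against 0.0679 in edgeR, and gave 77 genes higher and 137 lower at an unadjusted p under 0.05, against 231 and 32 in edgeR; UTRN was 0.38 with voom. The number of genes with a slope on the share of assigned reads was 3168 with all libraries, 1747 without the 2 libraries farthest from the median share, 1418 without the 4 doubtful libraries, and 2429 to 3708 with 1 library left out.

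Small log2 fold changes of members turned their sign. Without the 4 doubtful libraries, which were chosen after seeing the data, at 10000 against 5000 IU/kg they were 0.0777 for DMD, 0.0184 for DAG1, 0.182 for SGCA and 0.0329 for SNTB1. Against control at 10000 IU/kg that omission gave -0.0494 for UTRN and 0.0886 for SGCA, and the SGCA slope on the share turned to -0.0341. With voom, DMD was -0.0211 at 10000 IU/kg and SGCA 0.0251 at 5000 IU/kg against control. With the share as covariate, DAG1 was 0.0511 and SGCA 0.124 at 5000 IU/kg. With 1 library left out, values at 5000 IU/kg ran from -0.0587 to 0.259 for DMD and from -0.210 to 0.106 for SGCA, and at 10000 IU/kg from -0.0113 to 0.243 for DMD and from -0.103 to 0.355 for SNTB1. Between the doses they ran from -0.154 to 0.161 for DMD, from -0.442 to 0.0964 for UTRN, from -0.220 to 0.0873 for DAG1 and from -0.316 to 0.00762 for SGCA. With RLE scaling the DAG1 slope was 0.22 (adjusted p = 0.0540 in edgeR) and that of UTRN -0.34 (0.00555). The cause of these shifts was not tested.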
